A study of Arabidopsis thaliana with 30 samples.

Results

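The genes described here are those of the chloroplast genome of Arabidopsis thaliana. A gene was included if its locus identifier starts with ATCG and its counts summed to at least 100 over the 30 libraries, which gave 119 of the 133 ATCG rows and 119 of all 33602 gene rows of the count table. The members comprised 15 genes of photosystem II, 5 of photosystem I, 6 of the cytochrome b6f complex, 6 of the ATP synthase, 12 of the NDH complex and rbcL. The other members were 4 RNA polymerase genes, 26 rows of ribosomal protein genes, 13 other protein genes, 27 tRNA genes and 4 rRNA genes. The 14 rows left out were 10 tRNA and 4 rRNA genes. Just outside the limit lay trnN.2 with 91 summed counts, trnN.1 with 67 and trnR.3 with 43, and just inside it ycf15.2 with 182, ycf15.1 with 281 and rpl23.1 with 529.

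RNA was sequenced from petiole regions of the 4th rosette leaves of plants aged 21 days. Per the study's methods the plants grew in soil under long days with a daily dark period. Leaves were excised, floated on MES buffer at 22°C under continuous and weaker white light, and taken at 0 h and every 24 h until 96 h. In comparisons with 0 h, excision and the change of light cannot be told apart. The mutant eur1-11 was compared with its parent, named WT here, and with 3 replicates of each genotype at each time there were 10 groups. WT is a Col line that carries an ORE1::LUC luciferase reporter, and eur1-11 is 1 allele, obtained by EMS treatment of that line, with a premature stop in EAR1 (EUR1), a negative regulator of abscisic acid signalling. All 30 libraries therefore carry the reporter, and all leaves were excised. The labels do not say whether replicates came from separate plants, and the p-values may thus reflect technical spread. Libraries held 22482318 to 43243161 counts on genes, of which 5662441 to 27188797 fell on the members. In all 10 groups replicate 3 stood apart from the others, with a chi-square per degree of freedom across genes of 24.3 to 135 in its pairs and 5.10 to 13.9 between replicates 1 and 2.

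The chloroplast genome is a small circular chromosome present in many copies per cell. It encodes core subunits of the photosynthetic complexes, part of the chloroplast's own ribosome and tRNAs, and subunits of an RNA polymerase of bacterial type. That polymerase needs sigma factors encoded in the nucleus, and phage-type polymerases, also encoded in the nucleus, transcribe chloroplast genes as well. Transcripts of neighbouring genes are often made together and then cut, so RNA stability has a large part in their levels. In leaves these transcripts are abundant, and nuclear genes supply the remaining subunits of the same complexes.

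A TTG box and a TA box upstream of a gene are the textbook elements recognised by a bacterial-type polymerase with a sigma factor. A script searched the 250 bases before the start codon of 71 single-copy protein-coding members, on the gene's strand, for TTGNNN and TANNNT separated by 17 to 18 bases. It found a match in 18 of them (25.4%), against 19.2% of 30846 windows of 250 bases taken along both strands of the genome. The matches of psbA and rbcL are shown because these genes held most of the counts, that of psbB because it heads a photosystem II gene cluster, and that of accD because its level changed little after 24 h. Bases are from RefSeq (TAIR10.1, chromosome Pltd), written 5′ to 3′ on the gene's strand, with the boxes in capitals.
psbA: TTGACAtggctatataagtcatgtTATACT
rbcL: TTGCGCtatacatatgaaagaataTACAAT
psbB: TTGCATattggtacttatcggataTAGAAT
accD: TTGAATgactattcatctattgtTATTGT

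The psbA match lies at Pltd:1530-1559 on the minus strand, 85 bases before its start codon. Those of rbcL (Pltd:54745-54774), psbB (Pltd:72164-72193) and accD (Pltd:57016-57044) lie on the plus strand, 183, 177 and 30 bases before theirs. A match is a string of letters only and was not tested as a promoter.

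Of the 133 rows, 40 lie in or partly in the inverted repeat, a stretch of 26264 bases that occurs at Pltd:84171-110434 and again at Pltd:128215-154478. Their 26 members held 0.293% of the members' counts, while all 93 rows outside it were members. The table's row for reads without a unique position holds only 0 in every library. Values of repeat genes, which include ycf2, ndhB, rps7, rpl2, rpl23 and the rRNA genes, are therefore uncertain, and the copies of a gene (given with a suffix) cannot be told apart. Among genes outside the repeat, reads of matK and the trnK intron around it cannot be separated (1515 bases shared), nor those of psbC and psbD over 53 bases.

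At 0 h the members took most of all gene counts in every library. Their share was 58.8, 57.5 and 55.8% in the 3 eur1-11 libraries and 62.9, 61.9 and 61.2% in the 3 WT libraries. At 24 h it was 39.2 ± 4.29% in eur1-11 and 42.4 ± 3.34% in WT, at 48 h 29.6 ± 1.34% and 31.3 ± 0.0427%, at 72 h 26.0 ± 0.751% and 26.0 ± 0.517%, and at 96 h 21.9 ± 4.08% and 22.8 ± 0.966% in eur1-11 and WT (SD, n = 3 each). All 24 later libraries lay below all 6 libraries at 0 h. The mean share of the 12 later libraries was 29.2%, against 57.4% at 0 h, in eur1-11, and 30.6%, against 62.0%, in WT. The differences were −28.2 and −31.4 percentage points, each with p = 0.0022 in a two-sided exact permutation test, the smallest value its 455 arrangements can give.

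**Figure D1:**
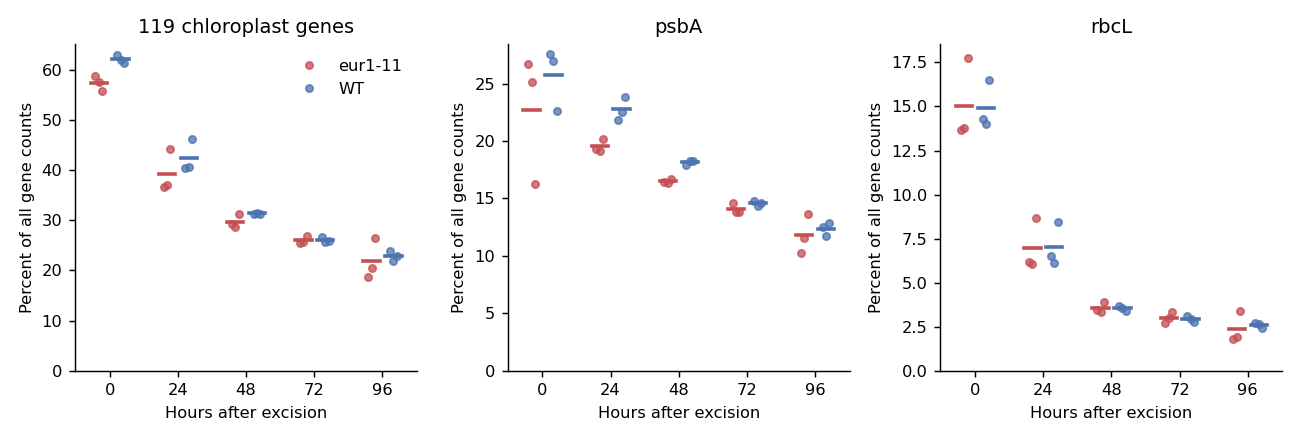
Percent of all gene counts (vertical axes) against hours after excision, for the 119 chloroplast genes together, psbA and rbcL; each point is 1 library, eur1-11 left and WT right at each time, and bars are means of 3. The share of the 119 genes was 57.4% in eur1-11 and 62.0% in WT at 0 h, and 21.9% and 22.8% at 96 h.

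The share is relative to all other RNA in a library, so a lower share can come from less chloroplast RNA or from more of other RNA. In whole tissue, fewer chloroplast-rich cells and less chloroplast RNA per cell cannot be told apart. How the libraries were freed of rRNA is not given in the sources used here. The share of the 146 genes of the mitochondrial genome averaged 1.45% at the later times, against 0.664% at 0 h, in eur1-11, and 1.47%, against 0.712%, in WT (exact permutation p = 0.0022 each). Of the counts outside the chloroplast genome it was 2.03%, against 1.56%, in eur1-11 (exact permutation p = 0.0044) and 2.11%, against 1.87%, in WT (exact permutation p = 0.0154), a denominator chosen after seeing the data.

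The leaf markers fell with the members' share, the senescence markers were higher at 96 h, and the vascular markers were mixed. The summed level of 3 leaf markers (LHCB1.1 and RBCS1A of photosynthesis, and the carbonic anhydrase CA1) was 366 to 668 CPM in eur1-11 at 96 h, against 15251 to 25053 CPM at 0 h. In WT it was 493 to 714 CPM at 96 h, against 13831 to 18486 CPM at 0 h. The sum of 3 vascular markers (SUC2, APL and IRX3) was 119 to 125 CPM at 24 h and 126 to 154 CPM at 96 h in eur1-11, against 135 to 205 CPM at 0 h. In WT it was 121 to 131 CPM at 24 h and 166 to 186 CPM at 96 h, against 180 to 231 CPM at 0 h. In both genotypes the sum at 24 h thus lay below that of all libraries at 0 h. Of these 3 markers edgeR called 1 lower at 24 h and at 96 h in each genotype, and 1 higher in WT at 24 h. Of all genes 31.7 and 32.1% were lower at 24 h in eur1-11 and WT, and 31.6 and 30.8% at 96 h. Of 6 senescence markers 5 could be tested, and edgeR called all 5 higher at 96 h than at 0 h in each genotype. The share of all genes called higher there is not given. The markers' median log2 fold change was 1.29 in eur1-11 and 1.38 in WT, where the median of all genes was 0.11 and 0.16. Root markers (WOX5, RHD6, COBL9) summed to at most 0.0629 CPM and flower markers (AG, AP1, AP3) to at most 0.364 CPM. The part of any of these in the members' change was not tested.

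A pair of genes made up most of the organelle's counts. The transcript of psbA (ATCG00020, Pltd:383-1444, minus strand), which encodes the D1 protein of the photosystem II reaction centre, held 39.5% of the members' counts in eur1-11 and 41.4% in WT at 0 h. The transcript of rbcL (ATCG00490, Pltd:54958-56397, plus strand), which encodes the large subunit of the carbon-fixing enzyme Rubisco, held 26.3% and 24.1%. On a level corrected for length (CPM within the members' counts, per kilobase of exon), psbA ranked first of 83 single-copy genes in every group shown (371526 ± 84019 in eur1-11 and 390281 ± 36507 in WT at 0 h). It was followed by rbcL (182703 ± 33165 and 167229 ± 16984). The next genes in WT at 0 h, atpH (27175 ± 1599) and petN (24001 ± 1168), were several fold lower, and psbE (23599 ± 1552) and rps14 (22879 ± 681) did not differ from petN beyond the spread between libraries (SD, n = 3).

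The largest transcripts parted after excision. As a share of the members' counts, psbA averaged 54.1% in eur1-11 and 54.2% in WT at 96 h, while rbcL averaged 10.6% in eur1-11 and 11.4% in WT. Both nevertheless fell relative to all genes. On the TMM scale used for all gene tests below, psbA had 72302, 83448 and 101714 CPM in the 3 eur1-11 libraries at 96 h, against 536082, 503822 and 334089 CPM at 0 h. In WT it had 93918, 85682 and 92008 CPM at 96 h, against 607060, 595535 and 512645 CPM at 0 h. No library at 96 h came near a library at 0 h. The log2 fold change was −2.42 ± 0.23 in eur1-11 and −2.66 ± 0.23 in WT (± SE), with adjusted p = 6.5e-09 and 1.9e-09 in edgeR.

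The fall of rbcL was steeper. It had 12740, 13704 and 25532 CPM in eur1-11 at 96 h, against 273596, 275722 and 363898 CPM at 0 h. In WT it had 20470, 19318 and 17473 CPM at 96 h, against 314185, 309876 and 373014 CPM at 0 h. The groups were far apart, with a log2 fold change of −4.16 ± 0.25 in eur1-11 and −4.10 ± 0.25 in WT (edgeR adjusted p = 4.6e-12 and 5.9e-12). TMM sets the scale by the bulk of genes, and its factors were 0.442 to 0.499 at 0 h and 1.34 to 1.42 at 96 h. The members' CPM therefore summed to 1144040 to 1386430 in the libraries at 0 h, more than an unscaled CPM can reach, and only ratios between libraries should be read from them.

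All 119 members passed the filter on low counts, and nearly all were lower after excision. Relative to 0 h, edgeR called 117, 115, 113 and 116 members lower in eur1-11 at 24, 48, 72 and 96 h, where 31.7, 31.3, 31.5 and 31.6% of all 21472 genes tested were lower. In WT it called 113, 113, 117 and 114 members lower, where 32.1, 31.3, 30.9 and 30.8% of all genes were. The median log2 fold change of the members was −1.64, −2.07, −2.24 and −2.46 in eur1-11 and −1.74, −2.18, −2.37 and −2.45 in WT, while the median of all genes lay between 0.07 and 0.16. There were 111 members called lower in all 8 comparisons. Without replicate 3 the counts at 96 h were 114 of 118 members in eur1-11 and 113 in WT. The members not called lower in all 8 were trnQ, trnL.3 and 6 rows of the inverted repeat (both copies of ycf15, rrn16S and rrn23S).

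The size of the fall depends on the scaling. With libraries scaled to total gene counts the median of all genes itself was 1.08 in eur1-11 and 1.17 in WT at 24 h, and 1.59 and 1.76 at 96 h. The members' medians were then −0.63 and −0.63 at 24 h and −0.99 and −0.86 at 96 h. A change of scaling shifts all genes about alike, so the distance to the median of all genes stays nearly fixed and is no separate check. On that scale 83 members were lower in eur1-11 and 86 in WT at 24 h, where 12.7 and 12.1% of all genes were. At 96 h 93 and 82 members were lower, where 10% of all genes were in eur1-11 and 8.92% in WT, and 8 members were higher in each genotype, where 77.4% of all genes were in eur1-11 and 78.9% in WT. With nuclear gene counts as the library size 110 and 111 members were lower at 24 h (19.6 and 20.5% of all genes) and 114 and 112 at 96 h (19.2 and 19.4%).

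Among the photosynthesis classes the median fall at 96 h was deepest for rbcL and shallowest for cytochrome b6f, and after rbcL came the ATP synthase in eur1-11 and photosystem I in WT. All 5 photosystem I genes, all 15 of photosystem II, all 6 of cytochrome b6f, all 6 of the ATP synthase and all 12 of the NDH complex were lower at 24 h and at 96 h in both genotypes. The median log2 fold change at 96 h was −2.91 in eur1-11 and −3.30 in WT for photosystem I, −2.80 and −3.20 for photosystem II, and −2.97 and −3.11 for the ATP synthase. It was −2.61 and −2.87 for the NDH complex, which carries electrons around photosystem I, and −2.46 and −2.66 for cytochrome b6f, which links the photosystems.

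The photosystem I reaction centre genes psaA and psaB had nearly equal changes. The transcript of psaB had 4321, 5019 and 6954 CPM in eur1-11 at 96 h, against 52916, 53594 and 58955 CPM at 0 h. In WT it had 6337, 5140 and 4677 CPM at 96 h, against 64307, 64528 and 68519 CPM at 0 h. The libraries did not overlap. The log2 fold change at 96 h was −3.36 ± 0.19 in eur1-11 and −3.60 ± 0.20 in WT for psaB, and −3.45 ± 0.20 and −3.63 ± 0.21 for psaA (edgeR adjusted p at most 4.5e-12). At 24 h it was −1.78 ± 0.18 and −2.04 ± 0.18 for psaB. For psbB, which encodes the CP47 antenna protein of photosystem II, it was −2.85 ± 0.17 and −3.21 ± 0.17 at 96 h, and for psbD, which encodes D2, −2.98 ± 0.16 and −3.42 ± 0.17.

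The ATP synthase genes atpB and atpA, for the beta and alpha subunits, had log2 fold changes at 96 h of −3.03 ± 0.16 and −3.11 ± 0.15 in eur1-11 and −2.93 ± 0.16 and −3.30 ± 0.16 in WT. The highest of cytochrome b6f, petB for cytochrome b6, had −2.50 ± 0.13 in eur1-11 and −2.72 ± 0.14 in WT. The NDH gene ndhD fell least of these, by 1.69 ± 0.12 on the log2 scale in eur1-11 and by 1.93 ± 0.13 in WT. The copies of ndhB in the repeat had −2.36 and −2.68 in eur1-11 and −2.18 and −2.65 in WT.

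Genes of the organelle's own gene expression also fell within 24 h. All 4 RNA polymerase genes (rpoA, rpoB, rpoC1 and rpoC2, the core subunits of the bacterial-type enzyme) and all 26 ribosomal protein rows were lower at 24 h in both genotypes. Their median log2 fold change at 24 h was −1.92 in eur1-11 and −1.67 in WT for the polymerase and −1.72 and −1.71 for the ribosomal proteins, against −1.49 and −1.71 for photosystem II. At 96 h the medians were −1.89 and −1.76 for the polymerase and −2.08 and −2.05 for the ribosomal proteins.

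Between 24 and 96 h the classes moved differently. Of all genes tested, 18.9% were lower and 17.1% higher at 96 h than at 24 h in eur1-11, and 18.9% were lower and 17.6% higher in WT. Among the members 72 were lower and 1 was higher in eur1-11, and 64 were lower and 1 was higher in WT. The lists of lower members shared 62 genes, 86.1% of the eur1-11 list and 96.9% of the WT list. Without replicate 2 the count was 48 in eur1-11 and 43 in WT, and the range over leaving out each replicate was 48 to 82 in eur1-11 and 43 to 66 in WT.

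All genes of photosystem I, photosystem II, cytochrome b6f and the ATP synthase were again lower at 96 h than at 24 h in both genotypes, as were rbcL and 11 of the 12 NDH genes. The median log2 fold change from 24 to 96 h was −1.57 in eur1-11 and −1.55 in WT for photosystem I, −1.38 and −1.38 for photosystem II and −1.31 and −1.15 for the ATP synthase. It was −1.14 and −1.12 for cytochrome b6f, −0.88 and −0.84 for the NDH complex and −2.03 and −1.90 for rbcL. The NDH row not called was ndhB.1, a repeat copy with a mean of 5.38 CPM.

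None of the 4 RNA polymerase genes was called between 24 and 96 h in either genotype. The transcript of rpoB (ATCG00190, Pltd:23111-26329, minus strand) had 248, 271 and 297 CPM in eur1-11 at 96 h, against 258, 275 and 249 CPM at 24 h and 801, 801 and 1419 CPM at 0 h. In WT it had 380, 329 and 289 CPM at 96 h, against 362, 381 and 315 CPM at 24 h and 1057, 1018 and 1267 CPM at 0 h. The libraries of 24 and 96 h overlapped, and both lay below 0 h. The log2 fold change between 24 and 96 h was 0.06 ± 0.17 in eur1-11 and −0.08 ± 0.17 in WT (edgeR adjusted p = 0.82 and 0.73). It was 0.02 ± 0.14 and −0.16 ± 0.14 for rpoC1, 0.05 ± 0.18 and −0.10 ± 0.18 for rpoC2, and −0.28 ± 0.13 and −0.12 ± 0.13 for rpoA. These errors leave room for a further change of moderate size.

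The ribosomal protein rows were divided. Only 10 of the 26 in eur1-11 and 8 in WT were lower at 96 h than at 24 h, and the class medians were −0.40 and −0.21. The lowest was rps14 (−1.52 ± 0.16 in eur1-11 and −1.48 ± 0.16 in WT), which lies directly after psaA and psaB on the same strand. Those called lower in both genotypes also included rpl32, rps4, rpl33, rpl2.2 and rps12B. The genes rps18 (0.05 ± 0.18 in eur1-11 and 0.13 ± 0.18 in WT) and rpl20 (0.21 ± 0.16 and 0.09 ± 0.16) were not called.

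**Figure D2:**
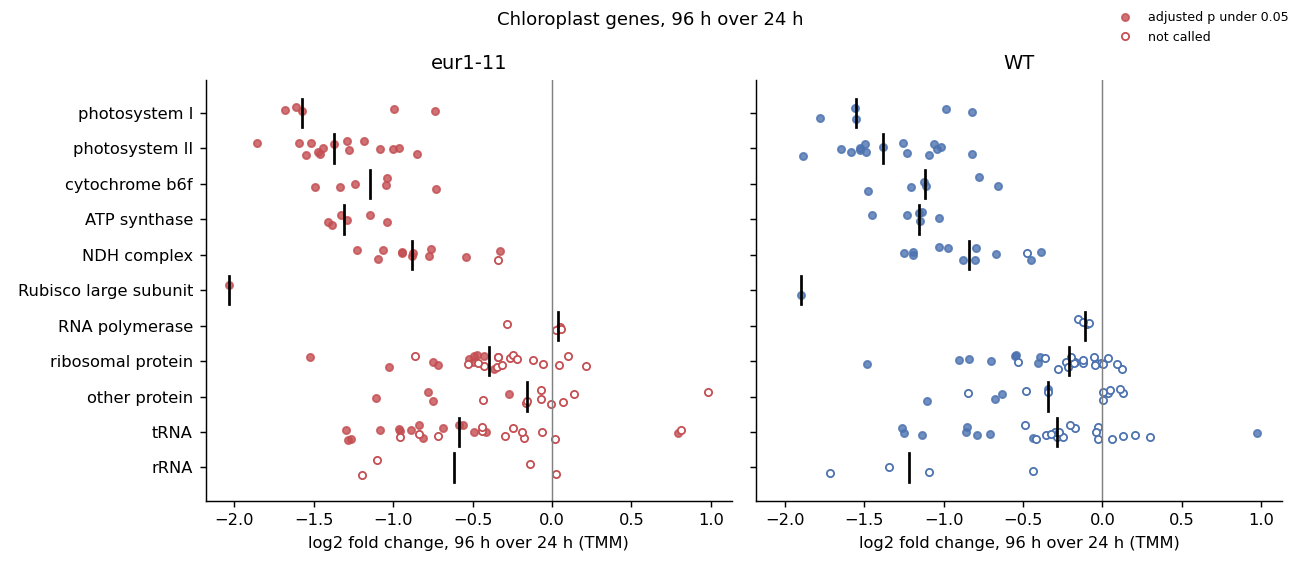
Log2 fold change of each chloroplast gene at 96 h over 24 h (horizontal axes, TMM scale), by class, in eur1-11 (left) and WT (right); filled points have an edgeR adjusted p under 0.05 and black bars are class medians. Photosystem, cytochrome b6f and ATP synthase genes lie below 0, and the 4 RNA polymerase genes, with medians of 0.04 and −0.11, lie about 0.

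Of the 13 other protein genes 4 were lower at 96 h than at 24 h in each genotype, the same genes in both. They were ccsA, for cytochrome c assembly (−1.11 ± 0.12 in eur1-11 and −1.10 ± 0.12 in WT), cemA for an envelope membrane protein, ycf4 for photosystem I assembly, and accD. The fall of accD, for a subunit of the acetyl-CoA carboxylase that starts fatty acid synthesis, was small (−0.27 ± 0.10 in eur1-11 and −0.34 ± 0.10 in WT, edgeR adjusted p = 0.042 and 0.012).

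The protease gene clpP (ATCG00670, Pltd:69910-71882, minus strand) was among the members that fell least. It had 1241, 1322 and 1567 CPM in eur1-11 at 96 h, against 1050, 1132 and 1588 CPM at 24 h and 2323, 2319 and 3625 CPM at 0 h. In WT it had 1549, 1451 and 1471 CPM at 96 h, against 1255, 1336 and 1590 CPM at 24 h and 2925, 2907 and 3509 CPM at 0 h. Libraries of 24 and 96 h overlapped and lay below those of 0 h. The log2 fold change at 96 h over 0 h was −0.99 ± 0.13 in eur1-11 and −1.05 ± 0.13 in WT (edgeR adjusted p = 8.9e-07 and 3.9e-07), and at 96 h over 24 h it was 0.14 ± 0.13 and 0.11 ± 0.13. Close to it at 96 h over 0 h were rps12A, the 5′ part of the trans-spliced rps12 (−0.92 ± 0.12 and −1.07 ± 0.12), rpl20 (−1.04 ± 0.16 and −1.11 ± 0.16) and accD (−1.16 ± 0.10 and −1.37 ± 0.10). Scaled to total gene counts these values turned positive for clpP (0.49 and 0.55), rps12A (0.56 and 0.53) and accD (0.32 and 0.23) in eur1-11 and WT, a scale on which the median of all genes was 1.59 and 1.76.

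**Figure D3:**
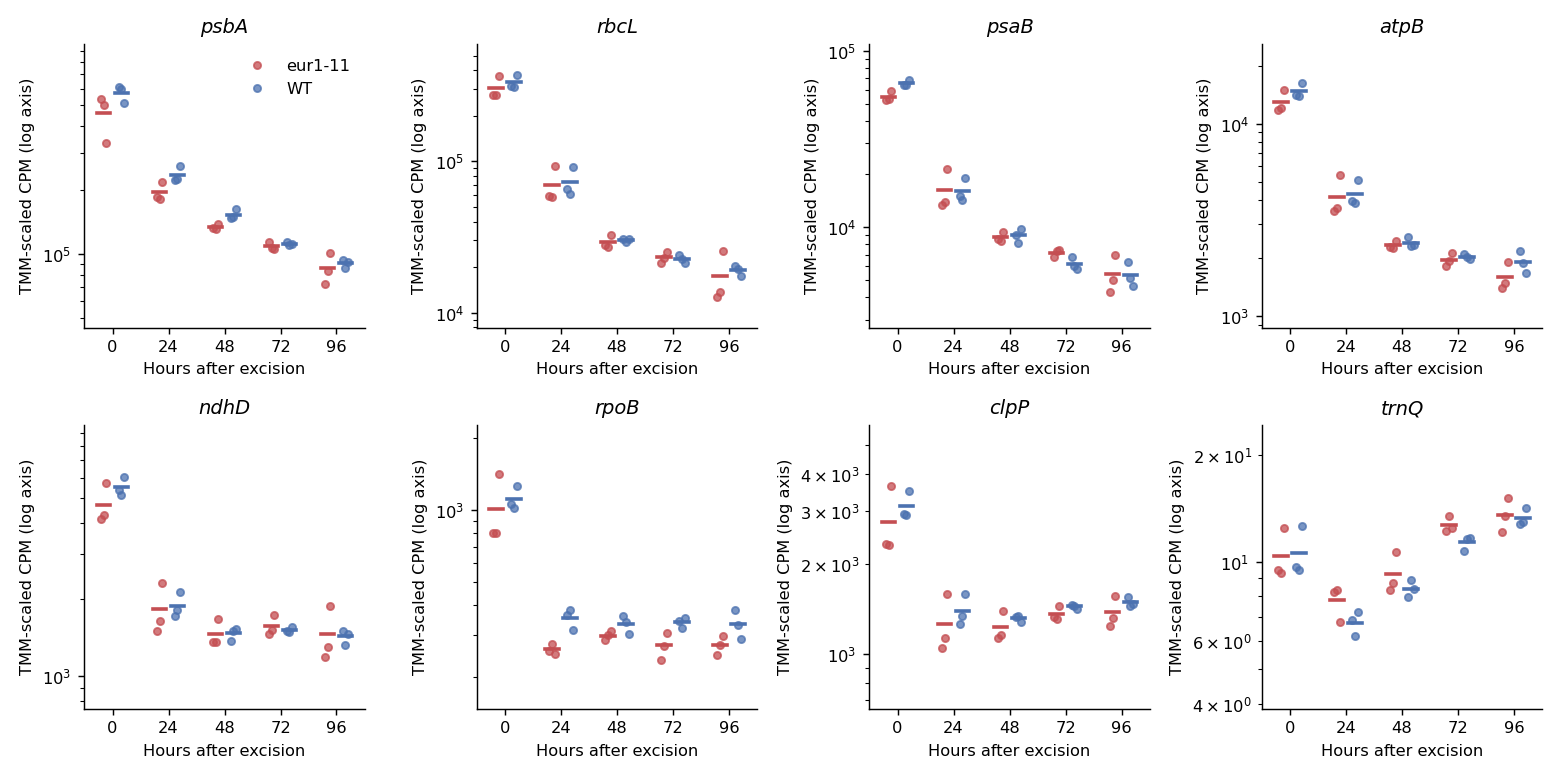
Levels of 8 chloroplast genes in TMM-scaled CPM (log axes) against hours after excision; each point is 1 library, eur1-11 left and WT right at each time, and bars are means of 3. The levels of psbA, rbcL, psaB and atpB were lower at 96 h than at 24 h, those of rpoB and clpP overlapped between these times, and trnQ had 12.1 to 15.11 CPM at 96 h, against 6.19 to 8.36 CPM at 24 h.

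One member was higher at 96 h. The transcript of trnQ, the glutamine tRNA gene (ATCG00060, Pltd:6616-6687, minus strand), had 12.1, 13.5 and 15.11 CPM in eur1-11 at 96 h, against 9.46, 9.28 and 12.4 CPM at 0 h. In WT it had 12.8, 13.0 and 14.2 CPM at 96 h, against 9.67, 9.46 and 12.6 CPM at 0 h. The groups overlapped slightly in eur1-11 and did not in WT. The log2 fold change was 0.39 ± 0.11 in eur1-11 and 0.34 ± 0.12 in WT (edgeR adjusted p = 0.0049 and 0.013). Without replicate 1, and without replicate 2, no member was called higher at 96 h in either genotype. At 24 h trnQ was lower than at 0 h (−0.40 ± 0.12 in eur1-11 and −0.64 ± 0.12 in WT), and from 24 to 96 h it rose by 0.79 ± 0.11 and 0.98 ± 0.12.

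The change of the other tRNA genes was uneven. At 96 h 25 of the 27 were lower than at 0 h in each genotype, with medians of −2.37 in eur1-11 and −2.56 in WT. Mature tRNAs are short and modified, so counts at these loci need not follow the tRNA itself. The highest by count, trnL.1, had −3.39 ± 0.23 in eur1-11 and −3.12 ± 0.22 in WT. The deepest falls of any member were those of trnI.2 (−4.94 ± 0.38 and −4.56 ± 0.38) and trnA.1 (−4.56 ± 0.41 and −4.25 ± 0.40), which lie between the rRNA genes of the repeat. For trnI.2 these rest on 0.489 to 0.866 CPM in eur1-11 at 96 h, against 11.8 to 29.9 CPM at 0 h, and 0.693 to 0.946 CPM in WT, against 14.5 to 27.0 CPM.

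The rRNA rows showed no stable pattern in time. Between 0 and 3 of the 4 were called lower in the comparisons at 24 and 96 h. Their levels were a few CPM and varied several fold between replicates, as for rrn23S.1 in WT at 24 h (17.1, 4.36 and 5.91 CPM).

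Neighbouring genes of 1 strand shared their change to different degrees. Among 14 runs of neighbours, the log2 fold changes at 96 h differed by 0.14 in eur1-11 and 0.09 in WT over psaA, psaB and rps14, and by 0.11 and 0.08 over atpB and atpE. They differed by 0.25 and 0.24 over rpoB, rpoC1 and rpoC2. The spread was larger over petL, petG and psaJ (0.76 and 1.23) and over rpl33 and rps18 (0.36 and 0.83). Thus rps14 changed with the photosystem I genes next to it (−3.31 ± 0.17 in eur1-11 and −3.54 ± 0.17 in WT at 96 h over 0 h) rather than as the median ribosomal protein row (−2.08 and −2.05).

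To see changes within the organelle, the members were also tested with the summed member counts as the library size. On this scale most nuclear genes move, and 77.1% of all genes were higher and 7.44% lower at 24 h in eur1-11, 77.4% and 7.06% in WT, 90.9% and 2.93% at 96 h in eur1-11, and 91.6% and 2.45% in WT. Of the members 22 were higher and 28 lower at 24 h in eur1-11, and 17 and 37 in WT. At 96 h 68 were higher and 12 lower in eur1-11, and 74 and 15 in WT. Because psbA holds such a large share of this scale, the summed counts of the protein-coding members other than psbA were also used as library size. This gave 96 higher and 5 lower members at 96 h in eur1-11, where 93.1% of all genes were higher and 1.97% lower. In WT it gave 93 higher and 5 lower members, where 93.5 and 1.77% of all genes were. That total still held rbcL, with the deepest fall of the photosynthesis classes (−4.16 in eur1-11 and −4.10 in WT on the TMM scale). Its fall raises the values of the other members there, and a total without both genes was not used.

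Relative to the organelle, most single genes of the expression machinery stood higher at 96 h than at 0 h. All 4 RNA polymerase genes were higher in both genotypes, with medians of 0.97 in eur1-11 and 1.26 in WT, and rpoC1 had 1.21 ± 0.18 and 1.48 ± 0.18 (edgeR adjusted p = 8.87e-07 and 3.66e-08). So were 20 of 26 ribosomal protein rows in eur1-11 and 25 in WT (medians 0.79 and 0.98), and 10 and 12 of the 13 other protein genes, with clpP at 1.89 ± 0.14 and 1.99 ± 0.14 and accD at 1.72 ± 0.11 and 1.67 ± 0.11. The exception among ribosomal protein rows was rps14, lower by this measure (−0.44 ± 0.11 in eur1-11 and −0.51 ± 0.11 in WT). At 24 h over 0 h the medians on this scale were −0.36 in eur1-11 and −0.01 in WT for the polymerase. They were −0.16 and −0.05 for the ribosomal proteins.

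The photosynthesis classes were mixed on this scale. All 6 cytochrome b6f genes were higher in both genotypes (medians 0.42 and 0.37), 6 NDH genes in eur1-11 and 4 in WT were higher and none lower. Photosystem I had 2 higher and 2 lower members in eur1-11 and 2 and 3 in WT, psaA at −0.58 ± 0.12 and −0.60 ± 0.12 and psaB at −0.49 ± 0.11 and −0.57 ± 0.11. The value of rbcL was −1.31 ± 0.13 in eur1-11 and −1.07 ± 0.13 in WT (edgeR adjusted p = 1.86e-09 and 5.85e-08), and psbA stood at 0.47 ± 0.13 and 0.39 ± 0.13.

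**Figure D4:**
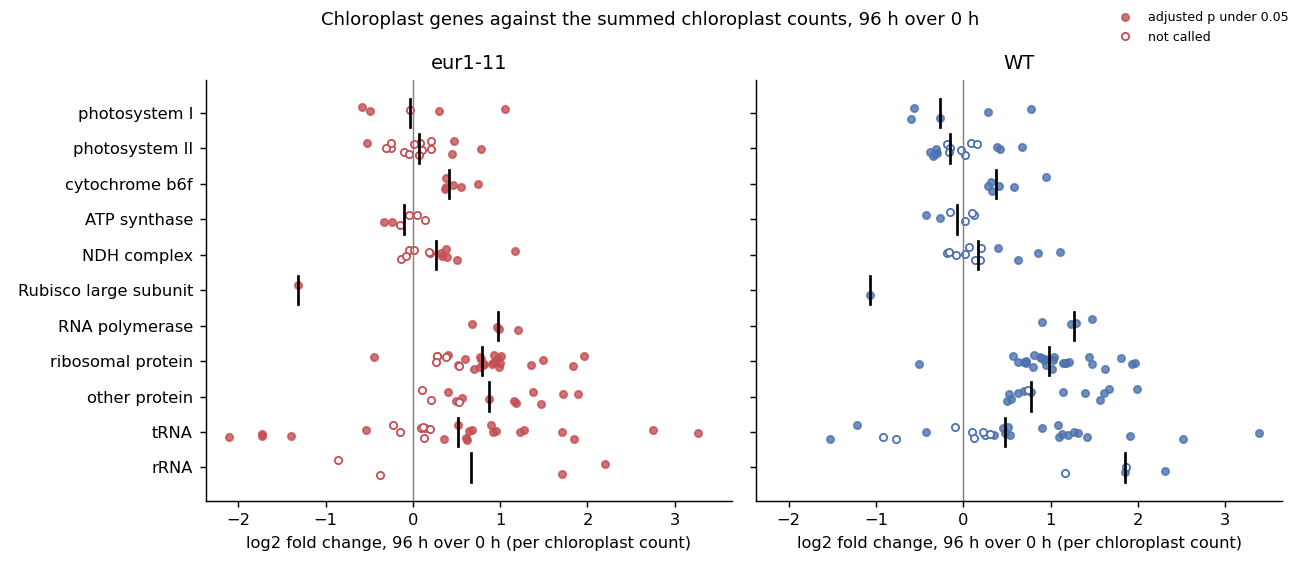
Log2 fold change of each chloroplast gene at 96 h over 0 h with the summed chloroplast counts as library size (horizontal axes), by class, in eur1-11 (left) and WT (right); filled points have an edgeR adjusted p under 0.05 and black bars are class medians. RNA polymerase medians lie at 0.97 and 1.26, and rbcL lies at −1.31 and −1.07.

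The shares of the classes were compared over the 12 later libraries and the 3 at 0 h. Of 22 tests, 9 passed an adjusted p under 0.05 in exact permutation tests. The share of rbcL in the members' counts was 13.0% at the later times, against 26.3% at 0 h, in eur1-11, and 12.6%, against 24.1%, in WT. Photosystem II rose to 63.4%, against 49.2%, in eur1-11 and to 65.0%, against 52.1%, in WT, and the differences for photosystem I were −2.205 percentage points in eur1-11 and −2.836 in WT (exact permutation, adjusted p between 0.00806 and 0.0121). Cytochrome b6f was higher by 0.717 points in eur1-11 and 0.487 points in WT (adjusted p = 0.0121 and 0.0161 in the exact permutation test). The ATP synthase share was lower by 0.821 points in WT (adjusted p = 0.00806) and by 0.668 points in eur1-11 (exact permutation, adjusted p = 0.058). No other class passed. For RNA polymerase the exact permutation test gave adjusted p = 0.257 in eur1-11 and 0.136 in WT, and for ribosomal proteins 0.259 and 0.257.

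The psbA transcript set several of these values. With psbA left out of the organelle total the ATP synthase share was higher later, by 0.902 points in eur1-11 and 0.683 points in WT, and that of photosystem I was higher by 0.205 points in eur1-11. Without psbA the photosystem II share was 21.0 ± 0.261% in eur1-11 at 96 h, against 16.2 ± 1.503% at 0 h, and 20.5 ± 0.893% in WT, against 18.2 ± 1.19% (SD, n = 3 each). This total still held rbcL, whose share of all members' counts fell from 26.3% at 0 h to 10.6% at 96 h in eur1-11. In WT it fell from 24.1% to 11.4%. A fall of rbcL raises the shares of the other classes, and a total without both genes was not used.

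The genotypes differed little. Over 15 pairs of libraries of equal time and replicate number, the members' share of all gene counts averaged 34.8% in eur1-11 and 36.9% in WT. The difference of −2.08 percentage points was of 1 sign in 12 of 15 pairs (exact sign-flip test, p = 0.00775). It shrank to −1.06 points without psbA (p = 0.108) and to −1.50 points without replicate 1 (p = 0.117, both by the exact sign-flip test). It was −1.93 points without replicate 2 (exact p = 0.0645). The libraries of the genotypes were fully apart at 0 h (57.4% in eur1-11 and 62.0% in WT) and 48 h (29.6% and 31.3%), where 3 against 3 libraries cannot go below an exact p of 0.1. At 24, 72 and 96 h they overlapped.

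Within the organelle 6 of 11 class shares differed between genotypes at an adjusted p under 0.05 (exact sign-flip test over 15 pairs). Photosystem II averaged 60.5% in eur1-11 and 62.4% in WT, photosystem I 8.35% and 7.80%, and cytochrome b6f 3.57% and 3.29%, the last higher in eur1-11 in 13 of 15 pairs. The NDH complex (1.86% and 1.75%), ribosomal proteins (1.92% and 1.81%) and tRNAs (1.03% and 0.942%) differed by about 0.1 points. None of the 11 passed without psbA or without replicate 3, and 1 passed without replicate 2. In eur1-11 at 0 h psbA held 45.5, 43.7 and 29.2% of the members' counts in replicates 1, 2 and 3, so that replicate 3 was lowest.

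Of single members, edgeR called 1 lower and 0 higher in eur1-11 than in WT at 0 h, where 0.61% of all genes were lower, and 0 in either direction at 24, 48, 72 or 96 h. A single call does not set the members apart from all genes. At an unadjusted p under 0.05 there were 21, 7, 4, 5 and 5 members at the 5 times, and DESeq2 called 7 lower at 0 h, 1 at 24 h and 0 later. The member called was trnY, a tyrosine tRNA gene. It had 37.93, 37.97 and 45.11 CPM in eur1-11 and 58.0, 54.4 and 65.1 CPM in WT at 0 h, with no overlap. The log2 fold change was −0.56 ± 0.145 (edgeR adjusted p = 0.0475). The call was lost with total gene counts (edgeR adjusted p = 0.0848), nuclear gene counts (0.0590), no filter (0.0666) or no replicate block (0.129), and without replicate 1 or replicate 2. Over all settings tried the adjusted p ranged from 0.000242 to 0.560.

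Averaged over the 5 times, 4 of the 119 members were lower and 0 higher in eur1-11, where 2.33% of all genes were lower. So few calls do not set the members apart from all genes, and an excess was not tested. The 4 were rpoC1 (−0.28 ± 0.064, edgeR adjusted p = 0.0101) and rpoB (−0.28 ± 0.074, 0.0294) of the RNA polymerase, and both copies of rrn23S (−1.60 ± 0.421 and −1.66 ± 0.443). At 24 h rpoC1 had 403, 431 and 381 CPM in eur1-11 and 586, 623 and 511 CPM in WT. At 96 h it had 376, 425 and 431 CPM in eur1-11 and 603, 514 and 427 CPM in WT, and at 0 h 1140, 1172 and 1566 CPM in eur1-11 and 1467, 1450 and 1596 CPM in WT. The groups did not overlap at 24 h and overlapped at 0 and 96 h. The third subunit of that cluster, rpoC2, was not called (−0.14 ± 0.079, edgeR adjusted p = 0.346). The rrn23S.2 row had 0.743, 1.203 and 0.838 CPM in eur1-11 and 3.46, 7.19 and 5.88 CPM in WT at 96 h, from repeat counts that are low and variable. At 72 h both rrn23S rows lay the other way (0.54 ± 0.94 and 0.78 ± 0.95), with 1.77, 0.612 and 17.5 CPM in eur1-11 and 0.379, 1.22 and 10.1 CPM in WT for rrn23S.2. Against the organelle total 14 of the 119 members were higher and 2 lower over the 5 times, where 10.8% of all genes were higher and 0.736% lower. The share called higher was thus about the same among the members as among all genes. Neither rpoC1 nor rpoB was called on that scale, on which the median was 0.08 for the members and 0.13 for all genes.

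**Figure D5:**
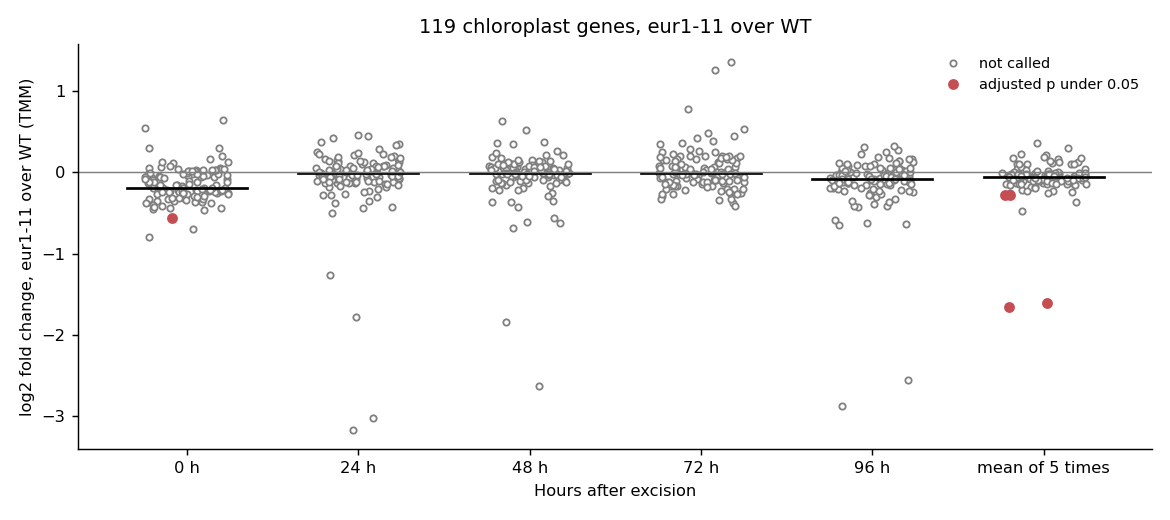
Log2 fold change of the 119 chloroplast genes, eur1-11 over WT (vertical axis, TMM scale), at each time and as the mean over the 5 times; filled points have an edgeR adjusted p under 0.05 and black bars are medians. Medians were −0.19 at 0 h and −0.05 over the 5 times.

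These counts depend on which replicates enter. Without replicate 3, 67 of 118 members tested were lower and 1 (trnH) higher in eur1-11 over the 5 times, where 10.2% of all genes were lower and 11.6% higher, with a median of −0.15 for the members. The lower members then included all 6 ATP synthase genes, rbcL, 10 of 15 photosystem II genes, 16 of 26 ribosomal protein rows, 3 of 4 RNA polymerase genes and 12 of 27 tRNA genes. Without replicate 1, and without replicate 2, 0 members were called. At 0 h 44 members were lower without replicate 3, where 3.94% of all genes were, and 0 without replicate 1 or replicate 2.

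The change after excision was not shown to differ between genotypes. In the interaction of genotype and time 0 of 119 members were called by edgeR at 24, 48, 72 or 96 h, with 8, 7, 14 and 6 at an unadjusted p under 0.05. DESeq2 called trnH at 24 h and psbC, psaJ and petD at 72 h, all with a smaller fall in eur1-11 (0.70 ± 0.183 for trnH). Without replicate 3, edgeR called 12 members higher at 72 h, where 2.12% of all genes were.

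Nuclear genes that act on the chloroplast genome were compared at 96 h and 0 h. Of all genes 31.6% in eur1-11 and 30.8% in WT were lower at 96 h, and 31.7 and 32.1% at 24 h. All 6 sigma factor genes were lower at 96 h in both genotypes, with SIG4 (−3.58 ± 0.39 in eur1-11 and −2.97 ± 0.38 in WT) and SIG5 (−1.89 ± 0.31 and −2.53 ± 0.32) the lowest in WT and SIG3 (−0.58 ± 0.15 and −0.76 ± 0.15) the highest. The phage-type polymerase gene RPOTMP, whose product is directed to chloroplasts and mitochondria, was higher (1.47 ± 0.22 in eur1-11 and 1.86 ± 0.23 in WT). RPOTP, for the chloroplast enzyme, was higher in WT (0.96 ± 0.28, edgeR adjusted p = 0.005) and had 0.12 ± 0.27 in eur1-11 (edgeR adjusted p = 0.723). The difference between these was −0.85 ± 0.39 and did not pass (edgeR interaction, adjusted p = 0.477).

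Of 12 genes for proteins associated with the bacterial-type polymerase, 9 in eur1-11 and 7 in WT were lower and none higher. PTAC7 had −2.52 ± 0.24 and −2.03 ± 0.24. For this and the next lists the shares of all genes lower at 96 h were 31.6 and 30.8%, as above. Of 11 genes for chloroplast RNA binding and decay, 10 in eur1-11 and 9 in WT were lower, led by CSP41B (−5.05 ± 0.41 and −4.58 ± 0.40) and CSP41A, for ribosome-associated RNA binding proteins. CRR2, which acts on NDH transcripts, was higher in both (0.95 ± 0.10 and 1.12 ± 0.10). All 26 listed nuclear subunits of the photosynthetic complexes were lower at 24 h and 96 h in both genotypes, with a median at 96 h of −3.80 in eur1-11 and −3.54 in WT. The small subunit gene RBCS3B, the partner of rbcL, had −6.40 ± 0.49 in eur1-11 and −5.56 ± 0.47 in WT. None of the sigma factors, polymerases or nuclear subunits was called between genotypes at 0 h or over the 5 times.

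The nuclear genes whose pattern was most like the members' share over the 10 group means were AT1G23490 (r = 0.996), AT3G54400 (0.996), AT2G31810 (0.993), AXS1 (0.992) and SMT2 (0.991), of 10163 genes with a mean of at least 10 CPM. AT1G23490 averaged 96.3 CPM in eur1-11 and 94.3 CPM in WT at 96 h, and 218.7 CPM and 218.6 CPM at 0 h. These correlations are across 10 groups that share libraries and the fall from 0 h, and are given as a description.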

How the data were processed

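The deposited table holds raw counts per gene for 30 libraries. Per the labels and the study's methods the authors used FastQC, STAR, HTSeq and TAIR10, and the deposited counts are neither normalized nor pooled. Versions, annotation release, strand setting and library kit are not given in the sources used here, so antisense reads cannot be told apart. Reads on no gene (3.58 to 6.76%) and ambiguous reads (2.43 to 3.45%) were left out.

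All 33602 gene rows entered edgeR 4.0.16 (R 4.3.3). TMM factors, filterByExpr by group (21472 genes kept), 1 term per group and the replicate number as a block were used in 1 quasi-likelihood fit, with Benjamini-Hochberg adjustment over all genes and calls under 0.05. TMM, edgeR and the replicate term follow the study's methods. The SE is the absolute log2 fold change over the square root of F. Shares were tested by exact permutation, two-sided. Alternatives were DESeq2 1.42.0, other scalings, no filter, other blocks, psbA left out and each replicate left out. The fit was tested on simulated data. Depth was 22482318 to 43243161 counts.

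Deviations of libraries of equal replicate number from the 2 genotypes correlated by 0.26 to 0.75 in 15 of 15 pairs (Pearson r across genes), and libraries of other numbers by −0.70 to 0.56, so the numbers were taken to pair the libraries. Over the members alone equal numbers correlated by −0.26 to 0.85. Between neighbouring times the correlation was weaker, −0.26 to 0.58 over 24 pairs (median 0.14), and −0.63 to 0.74 for the members (median −0.03). A replicate block common to all times thus has less backing than the pairs within a time. The numbers are those of the sample titles, and the study used the replicate number as a factor. That equal numbers of the 2 genotypes belong together comes from the data, not from a label. No pair of replicates was as alike as sampling noise allows (chi-square per degree of freedom at least 5.10), so none was counted as a repeat.

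The members, the lists and the tests were chosen with earlier results of these data known. Names were 66 from the study's supplement and 67 from standard nomenclature, and 129 of 133 match RefSeq symbols. Members named in the text were the highest of each class, 12 listed genes, the 5 highest and lowest changes at 24 and 96 h, and those called between genotypes. Runs of neighbours, rps18, rpl20, ccsA, psbC, psaJ and petD were singled out after their values were seen. Positions are from RefSeq TAIR10.1.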

Additional observations from a re-analysis of the deposited data

How the results depend on the processing

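Of the summary values recomputed under other settings, 232 kept their call or stayed within 1.5 times, 59 counts did not, and 3 values lost their call. The fall of the members' share after excision kept its call under every setting tried. The size of the members' fall depends on scaling as given above. Leaving out a replicate leaves 45 arrangements for a share test. The genotype results depend on which replicates enter: member calls were lost without replicate 1 or replicate 2 and gained without replicate 3, and the cause was not tested. Counts of rRNA rows are low.

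The genotype difference in the members' share was −1.06 points without psbA and ranged from −1.50 to −2.82 points over leaving out each replicate. Class shares passing over time numbered 14 without psbA and 0 to 0 over leaving out each replicate. The total without psbA still held rbcL, whose fall raises the other shares over time. With a replicate left out, the smallest p that the remaining arrangements allow can hardly pass the adjustment over all class tests. The counts of 0 therefore do not show whether the shifts over time depend on a replicate. Between genotypes the class shares passing numbered 0 without psbA, 2 with no replicate block and 0 to 4 over leaving out each replicate. Without psbA these differences reversed: over time ATP synthase (0.902 in eur1-11 and 0.683 in WT), photosystem I (0.205 in eur1-11) and tRNA (0.433 in eur1-11), and between genotypes ATP synthase (−0.107), rbcL (−0.08005) and other proteins (−0.156). Over leaving out each replicate, those of tRNA over time ranged from −0.0554 to 0.0933 in WT and −0.179 to 0.126 in eur1-11, and between genotypes those of ATP synthase from −0.0437 to 0.217, rbcL from −0.124 to 1.1998 and other proteins from −0.0750 to 0.0723.

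Members lower in eur1-11 at 0 h numbered 2 with DESeq2 size factors, 7 with the DESeq2 test, 3 with the replicate block within each time, and 0 with total or nuclear gene counts, with no filter or with no replicate block. At 24 h they numbered 1 with the DESeq2 test, and 3, 1 and 1 at 24, 48 and 96 h with the replicate block within each time. Leaving out each replicate gave 0 to 44 at 0 h, 0 to 8 at 24 h, 0 to 3 at 48 h, 0 to 11 at 72 h, 0 to 41 at 96 h and 0 to 67 over the 5 times. For 24, 48, 72 and 96 h the share of all genes called in these settings is not given. These counts therefore show only the dependence on the setting. Members higher over the 5 times numbered 1 with DESeq2 size factors, 1 with the DESeq2 test, 5 with total gene counts, 2 with the block within each time, and 0 to 1 over leaving out each replicate. Interactions called higher numbered 1 at 24 h and 3 at 72 h with the DESeq2 test. Leaving out each replicate gave 0 to 2, 0 to 1, 0 to 12 and 0 to 2 at 24, 48, 72 and 96 h, and 0 to 1 lower at 96 h. The replicate block changed no other count of calls by over 1.5 times.

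The organelle total without psbA still held rbcL, whose fall raises the values of the other members. Against that total, 42 members were higher and 14 lower at 24 h and 5 lower at 96 h in eur1-11. In WT 46 were higher and 14 lower at 24 h and 5 lower at 96 h. Leaving out each replicate gave 9 to 39 higher at 24 h and 40 to 79 higher at 96 h in eur1-11, and 6 to 34 higher and 18 to 36 lower at 24 h and 7 to 16 lower at 96 h in WT. Without psbA the log2 values at 96 h reversed for atpA (0.16 in eur1-11 and 0.11 in WT), psbD (0.30 in eur1-11) and atpB (0.26 in eur1-11). With total gene counts they reversed in eur1-11 at 24 h for trnH (0.24), trnQ (0.63, and 0.11 with nuclear gene counts), trnfM (0.29) and psaI (0.18), and at 96 h for clpP, rps12A and accD as given above, trnL.3 (1.35 in eur1-11 and 1.08 in WT) and ycf1.2 (0.14 in WT). For clpP they were 0.49 in eur1-11 and 0.55 in WT, for rps12A 0.56 and 0.53, and for accD 0.32 and 0.23.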
